A study of Oryza sativa with 8 samples.

Results

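Of the 32166 loci in a table of rice flag leaf RNA, 28 were at or near 0 in the wild type and were detected in every library of the genotypes that carry a GSK2 RNA interference label. They were chosen by their own values: a normalized count of at most 5 in both wild type libraries and of at least 10 in each of the 6 libraries labelled GSK2-RNAi or GSK2-RNAi oswrky53. The gap between wild type and RNAi-labelled libraries is therefore a description of these 28 loci and carries no test. The locus with the highest counts was Os03g0115800 on chromosome 3, at 0 in both wild type libraries and at 1708 to 2875 normalized counts in the other 6. The choice did not rank the loci by the difference between the RNAi labels, the spread within them, or their position. The limit of 10 in all 6 does bound the difference and the spread, since a locus below 10 under either label was left out. Left out were 49 loci that reached 10 in all 3 GSK2-RNAi libraries but were at most 5 in the wild type and GSK2-RNAi oswrky53 libraries. With the RNAi labels exchanged there were 19 such loci.

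All 8 libraries came from flag leaves of the cultivar ZH11. Every sample title also carries the label CK, which the titles do not explain. The wild type had 2 libraries (numbered 1 and 3) and the genotype labelled GSK2-RNAi had 3. The genotype labelled GSK2-RNAi oswrky53, also with 3 libraries, joins that RNAi label with a mutation of the transcription factor gene WRKY53. The stage is heading in the sample labels and booting in the series text. The promoter of the construct, the number of transformed lines behind each label, the kind of WRKY53 mutation and the number of plants per library do not stand in the labels. The p-values below thus measure the spread between these libraries, which may be technical.

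RNA interference uses a transcribed hairpin to lower the RNA of a chosen gene. GSK2 encodes a kinase that holds back the response to brassinosteroids, hormones that set leaf angle, plant height and grain size in rice, and WRKY53 is known as a positive factor in that response. Rice locus identifiers carry the chromosome after "Os" and a number that rises along the chromosome, in steps of 100 for the loci first numbered, so the identifiers themselves give the order of neighbours. Neither the deposited table nor the reference gene table gives a product for any of the 28 identifiers, so no gene name or function is attached to them here. A table of counts does not tell an unexpressed locus from a locus whose reads were not assigned to it.

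The count of the locus named by the construct went against its label. Os05g0207500, the locus taken here as GSK2 from general knowledge of rice genes, was at 105 and 98.5 normalized counts in the wild type. With the GSK2-RNAi label it was at 795, 741 and 819.6, and with the GSK2-RNAi oswrky53 label at 182, 219 and 155, above both wild type values in all 6. Whether reads of the transcribed hairpin were counted at this locus was not tested, so its counts do not give the level of the plant's own GSK2 RNA. The groups are therefore named by their labels, and no difference below is read as following from less or more GSK2 RNA. As a check of the tissue, 3 loci taken from general knowledge as genes of the Rubisco small subunit, the leaf's main carbon-fixing enzyme, were present at 32542 to 344587 in all libraries. All 3 were lower in each library labelled GSK2-RNAi than in both wild type libraries. Os12g0274700, for example, was at 186880 and 231265 in the wild type, at 62662, 52555 and 60519 with the GSK2-RNAi label and at 83480, 203865 and 161393 with the GSK2-RNAi oswrky53 label. The part of this difference in the results below was not tested. In approximate reads, from the value of 1 read in each library, the wild type libraries were the deepest, at 38.71 and 29.21 against 19.87 to 24.91 in the other 6, in units of 1e+06 reads. One read was worth about 0.724 and 0.950 normalized counts in the wild type libraries, so the limit of 5 stood for about 6.91 and 5.26 reads there.

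The 28 loci were 0.0870% of all loci in the table. With only 2 wild type libraries the count leans on each of them: without wild type replicate 1 the rule took 95 loci, and without wild type replicate 3 it took 78, in both cases with all 28 among them, as a rule with fewer conditions must. Just inside the limits stood Os01g0297200, with 10.5 as its lowest RNAi-labelled value, and Os08g0468400, with 4.74 as its higher wild type value. Just outside stood Os10g0109600, at 0.724 and 0 in the wild type and with 9.85 as its lowest RNAi-labelled value, and Os07g0537900, with 5.04 in wild type replicate 1. A further 83 loci passed the limit in the RNAi-labelled libraries and had their higher wild type value between 5 and 10.

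The opposite pattern, at least 10 in both wild type libraries and at most 5 in the other 6, was met by 2 loci. Os05g0551650 was at 20.2 and 17.1 in the wild type and at 0 to 3.59 in the RNAi-labelled libraries. Os09g0517800 was at 17.3 and 12.3 against 0 to 4.48. Leaving out 1 library at a time, in the order of the replicate numbers, gave 33 and 18 such loci for the wild type, 6, 2 and 4 for the GSK2-RNAi label, and 4, 9 and 9 for the GSK2-RNAi oswrky53 label. The 2 patterns ask for low and for high values in different numbers of libraries, so the counts of 28 and 2 do not rest on equal terms. Set against the other genotypes, 7 loci were at most 5 in the 3 libraries labelled GSK2-RNAi and at least 10 in the remaining 5, and 6 loci were so in those labelled GSK2-RNAi oswrky53. Asked of only 2 of the 3 libraries of the genotype, these counts were 12 to 22 for GSK2-RNAi and 6 to 8 for GSK2-RNAi oswrky53. The reverse asks for at least 10 in the 3 libraries of the genotype and at most 5 in the remaining 5. It was met by 49 loci for GSK2-RNAi and by 19 for GSK2-RNAi oswrky53.

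**Figure D1:**
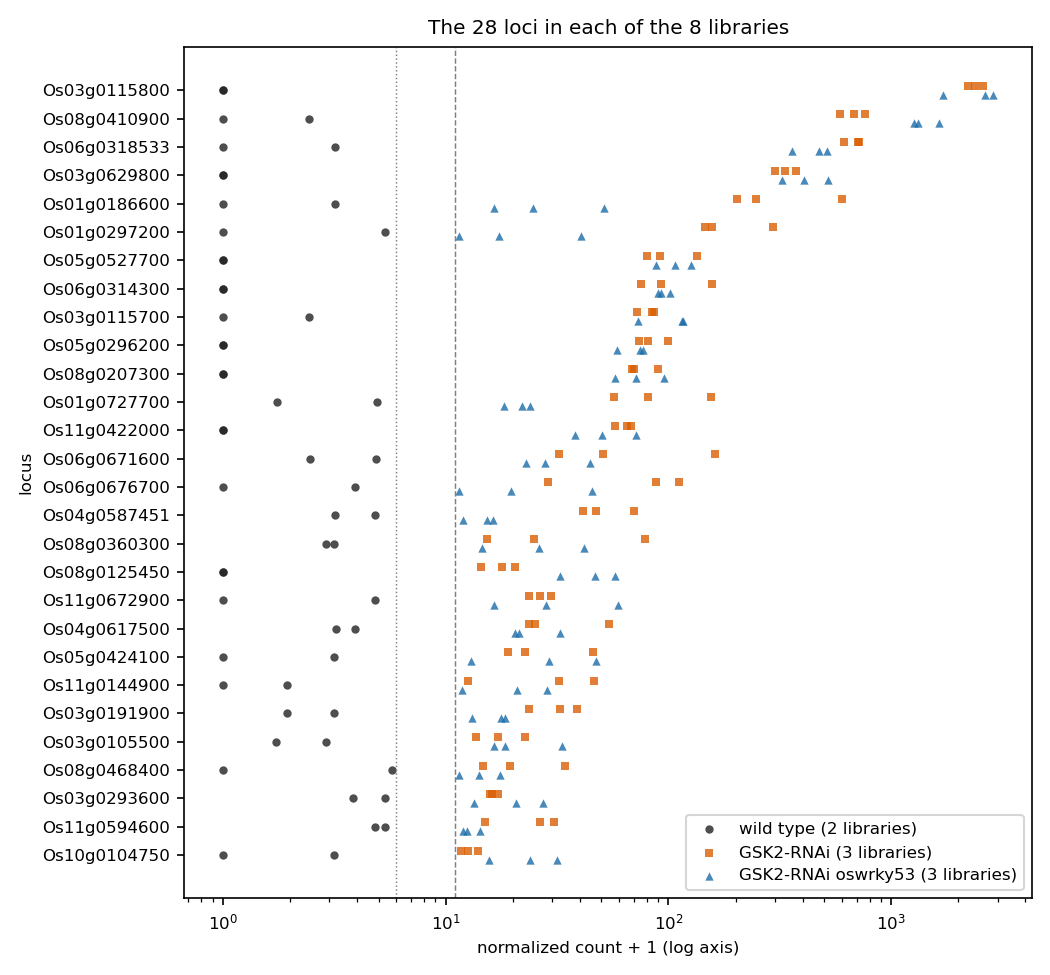
Normalized count plus 1 (log axis) of each of the 28 loci in the 2 wild type, 3 GSK2-RNAi and 3 GSK2-RNAi oswrky53 libraries, 1 point per library, ordered by the mean of the 6 RNAi-labelled libraries. The dotted and dashed lines are the limits of 5 and 10 that chose the loci; no point lies between them, and the RNAi-labelled values run from just above 10 to 2875.

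Of the 28 loci, 8 were at 0 in both wild type libraries, 11 in exactly 1 of them, and 9 were above 0 in both. At exact zero the wild type again had the higher count: 8 loci were at 0 in all its libraries and at least 10 in all others, against 1 locus for the libraries labelled GSK2-RNAi and 1 for those labelled GSK2-RNAi oswrky53. Leaving out 1 library of the genotype, these numbers were 22 to 24 for the wild type, 2 to 4 for GSK2-RNAi and 1 to 3 for GSK2-RNAi oswrky53. No locus was at 10 or more in both wild type libraries and at 0 in all 6 others. Normalized counts are not per length of the transcript, so the order of the loci by count below is not an order of abundance.

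Os03g0115800 was at 0 and 0 in the wild type, at 2199.6, 2369 and 2578 with the GSK2-RNAi label and at 2875, 1708 and 2636 with the GSK2-RNAi oswrky53 label. The 2 RNAi labels overlap, and no RNAi-labelled library comes near the wild type. This locus held between 33.4% and 48.5% of the summed counts of the 28 loci in each RNAi-labelled library. Its neighbour Os03g0115700, the only case of 2 members next to each other, was at 1.44 and 0 in the wild type, at 85.4, 71.0 and 83.6 with the GSK2-RNAi label and at 114, 72.1 and 116 with the GSK2-RNAi oswrky53 label. Here too the RNAi labels overlap.

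Os03g0629800, also on chromosome 3, was at 0 in both wild type libraries, at 299, 331 and 374 with the GSK2-RNAi label and at 321, 521 and 404 with the GSK2-RNAi oswrky53 label. The lowest of the latter lies within the range of the former. A further pair with 0 in both wild type libraries lay on chromosome 5. Os05g0296200 was at 72.4, 98.5 and 80.2 and at 73.4, 76.2 and 57.8 under the respective RNAi labels, and Os05g0527700 at 79.0, 90.5 and 133 and at 106, 86.8 and 125. At both loci the RNAi labels overlap.

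The remaining loci at 0 in both wild type libraries lay on chromosomes 6, 8 and 11. Os06g0314300 was at 74.6, 91.3 and 155 with the GSK2-RNAi label and at 88.7, 91.4 and 101 with the GSK2-RNAi oswrky53 label. Os08g0207300 was at 69.2, 68.0 and 88.4 and at 56.4, 94.6 and 70.7, and Os11g0422000 at 63.8, 66.7 and 56.3 and at 70.8, 49.4 and 37.1. In each of these the labels overlap. Os08g0125450 differed in form: it was at 19.5, 13.4 and 16.9 with the GSK2-RNAi label and at 46.0, 31.6 and 56.7 with the GSK2-RNAi oswrky53 label, without overlap.

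Among the 20 loci with a value above 0 in the wild type, the 3 with the highest means are given first; their wild type values were 0 in replicate 3 and 1.44 to 2.19 in replicate 1. Os08g0410900 was at 1.44 and 0 in the wild type, at 761, 586 and 682 with the GSK2-RNAi label and at 1260.1, 1636 and 1323 with the GSK2-RNAi oswrky53 label, where every value lies above the former 3. Os06g0318533 was at 2.19 and 0, then at 610, 708 and 715, then at 513, 359 and 472, where every value lies below the former 3. Os01g0186600 was at 2.18 and 0, then at 246, 203 and 603, then at 15.5, 50.5 and 23.7. At this last locus every value with the GSK2-RNAi oswrky53 label lies below the 3 with the GSK2-RNAi label.

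The other 17 loci had a mean over the 6 RNAi-labelled libraries between 17.3 and 109.8, with Os10g0104750 at the lower end and Os01g0297200 at the upper end. Several sit close to the limits. Os11g0594600 was at 4.34 and 3.80 in the wild type, at 14.1, 29.7 and 25.4 with the GSK2-RNAi label and at 13.2, 10.9 and 11.5 with the GSK2-RNAi oswrky53 label. Os03g0293600 was at 4.35 and 2.86, at 15.1, 16.3 and 14.9, and at 26.5, 19.7 and 12.4. At these counts a few reads separate the wild type from the RNAi labels, unlike at the loci just described.

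Setting the GSK2-RNAi oswrky53 label against the GSK2-RNAi label asks whether the loci kept the same level under both. By name the labels differ in the WRKY53 mutation. The GSK2 locus also differed between them, at 182, 219 and 155 against 795, 741 and 819.6, and the transformed lines behind each are not given. The mutation, the line and the level of this locus cannot be told apart here. Of the 28 loci, 4 fell and 1 rose, all with the same fit as the other loci: limma on log2(normalized count + 1) with Benjamini-Hochberg adjustment over 25325 loci and an adjusted p under 0.05. That is 17.9% of the members, beside 16.5% of all loci tested, so the share called is near the background. By direction, the 4 that fell were 14.3% beside 7.70% of all loci and the 1 that rose was 3.57% beside 8.78%. Leaving out GSK2-RNAi replicate 1, 2 or 3, the calls among the 28 were 2, 1 and 3; leaving out the GSK2-RNAi oswrky53 libraries in the same order, they were 3, 3 and 2. A missing call does not show that a locus had the same level under both labels.

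Of the 4 loci that fell, 3 lie on chromosome 1. Os01g0186600, with the values given above, fell by 3.50 ± 0.62 (log2 scale, SE; limma adjusted p = 0.00991), an 11.7-fold lower mean, and kept its call in each of the 17 alternatives. Os01g0297200 was at 4.33 and 0 in the wild type, at 145, 155 and 293 with the GSK2-RNAi label and at 39.5, 16.4 and 10.5 with the GSK2-RNAi oswrky53 label. It fell by 3.23 ± 0.70 (SE, limma adjusted p = 0.0184), with adjusted p = 0.0604, 0.0679 and 0.0607 without GSK2-RNAi replicate 2, GSK2-RNAi replicate 3 and GSK2-RNAi oswrky53 replicate 3. Both loci lie on chromosome 1, with 631 listed loci between them.

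Os01g0727700, the third member on chromosome 1, was at 0.749 and 3.92 in the wild type, at 79.7, 154 and 55.9 with the GSK2-RNAi label and at 20.9, 17.2 and 23.0 with the GSK2-RNAi oswrky53 label. It fell by 2.07 ± 0.51 (log2 scale, SE; limma adjusted p = 0.0285). Leaving out GSK2-RNAi replicate 1 or 2 ended this call (adjusted p = 0.0721 and 0.112), as did leaving out any of the 3 GSK2-RNAi oswrky53 libraries (0.0562, 0.0744 and 0.0664). Os04g0587451 was at 2.18 and 3.82 in the wild type, at 69.2, 46.2 and 40.5, and at 14.4, 11.0 and 15.4. It fell by 1.84 ± 0.38 (SE, limma adjusted p = 0.0161), with 0.0619 and 0.0589 when GSK2-RNAi replicate 1 or 2 was left out.

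The locus that rose was Os08g0410900, by 1.05 ± 0.31 (log2 scale, SE; limma adjusted p = 0.0495), and its mean was 2.08 times as high. This call stood at the threshold. It was lost without any single one of the 6 RNAi-labelled libraries (limma adjusted p from 0.0781 to 0.161), with pseudocount 0.5 (0.129), without the filter on low values (0.0555), with equal totals (0.0829, log2 difference 0.74), with quantile normalization (0.0888) and with eBayes without trend (0.079). Os08g0125450 was higher by 1.35 ± 0.40, which did not pass (limma adjusted p = 0.053) but did so with pseudocount 5 (0.0293), quantile normalization (0.0402), eBayes without trend (0.0185), only the compared groups (0.0354) and a filter on all 6 libraries (0.029).

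At the other 7 loci with 0 in both wild type libraries the log2 difference ran from -0.29 ± 0.34 at Os11g0422000 to 0.29 ± 0.23 at Os03g0629800 (SE). At Os03g0115800 it was -0.02 ± 0.20 (limma adjusted p = 0.964). With libraries scaled to equal totals the median of all loci moved from -0.01 to -0.32 on the log2 scale and the split of all calls from 2223 higher and 1949 lower to 1145 and 6193, and the difference at Os03g0629800 was then -0.02. Over the 28 loci the median log2 difference was -0.28, beside -0.01 over all loci tested. Leaving out 1 library at a time it ran from -0.40, without GSK2-RNAi oswrky53 replicate 1, to -0.05, without GSK2-RNAi replicate 3, with -0.16 without GSK2-RNAi oswrky53 replicate 3. With equal totals it was -0.59, beside -0.32 over all loci. The groups of the RNAi labels did not overlap at 10 of the 28 loci, 35.7%. The share was 39.2% of all loci tested and 40.3% of those with at least 10 in all 6 RNAi-labelled libraries.

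**Figure D2:**
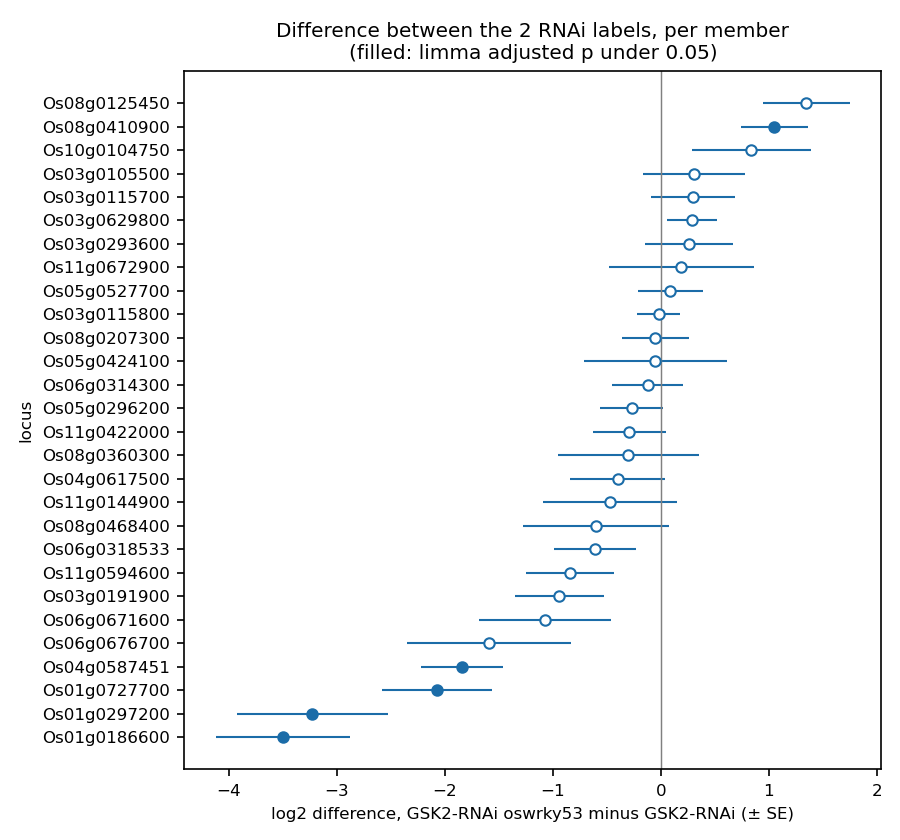
Log2 difference of the libraries labelled GSK2-RNAi oswrky53 minus those labelled GSK2-RNAi (n = 3 each) for the 28 loci, with its standard error from limma; filled points have an adjusted p under 0.05. The 4 filled points on the left run from -3.50 to -1.84, the filled point on the right is at 1.05, and most of the others lie within about 1 of 0.

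The 28 loci differed in how steady they were across the 6 RNAi-labelled libraries. The ratio of the highest to the lowest of the 6 values had a median of 2.82 over the members and ran from 1.63 at Os03g0115700 to 39.0 at Os01g0186600. The median was 1.76 over all 21411 loci with at least 10 in each of these libraries, of which 61.4% had a ratio under 2, against 8 of the 28 members. Low counts vary more from read sampling: among the 4863 of those loci with a mean under 100, 33.6% had a ratio under 2, and among the 20 members with such a mean 4 did. The members differ from each other in this by their wild type value: 6 of the 8 loci at 0 in both wild type libraries had a ratio under 2, against 2 of the other 20. Those 2 were Os03g0115700 and Os06g0318533. The 8 loci mostly had higher means than most of the other 20, so wild type value and count level were not told apart here. The wild type value was part of how the loci were chosen and the loci are few, so this split is given as a description.

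**Figure D3:**
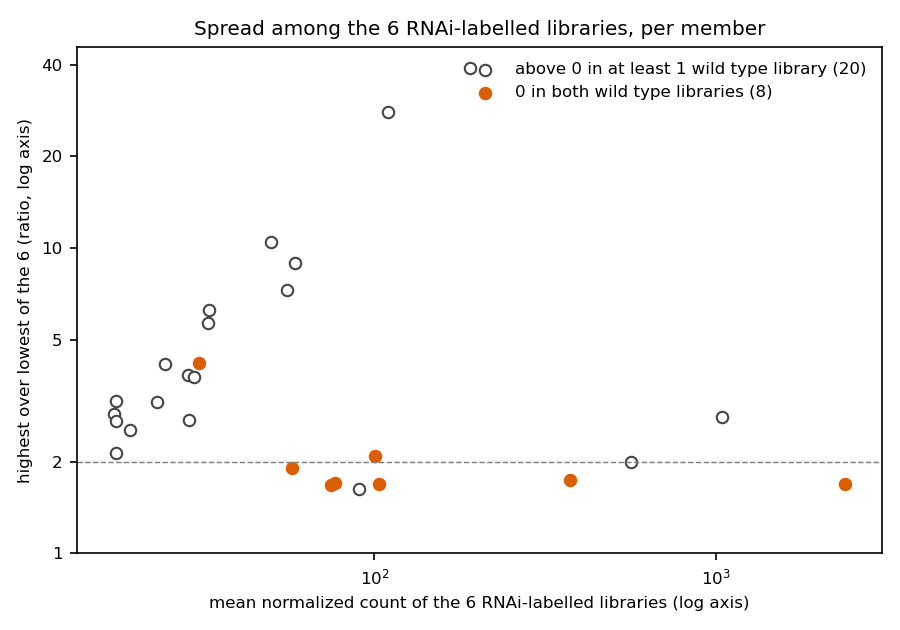
Ratio of the highest to the lowest of the 6 RNAi-labelled libraries (log axis) against their mean normalized count (log axis), 1 point per member. Filled points are the 8 loci at 0 in both wild type libraries, of which 6 lie under the dashed line at a ratio of 2; open points are the other 20, which reach 39.0.

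By locus number the 28 loci were spread over 8 of the 12 chromosomes. Chromosome 3 held 6, chromosome 8 held 5, chromosomes 6 and 11 held 4 each, chromosomes 1 and 5 held 3 each, chromosome 4 held 2 and chromosome 10 held 1. Chromosomes 2, 7, 9 and 12, with 30.2% of all listed loci, held none. Per 1000 listed loci this was 2.29 on chromosome 8, 2.03 on chromosome 11, 1.51 on chromosome 6 and 1.5 on chromosome 3, against 0.870 over the whole table. With 6 or fewer loci per chromosome, counting error alone covers wide ranges around these rates, and no test of them was made.

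**Figure D4:**
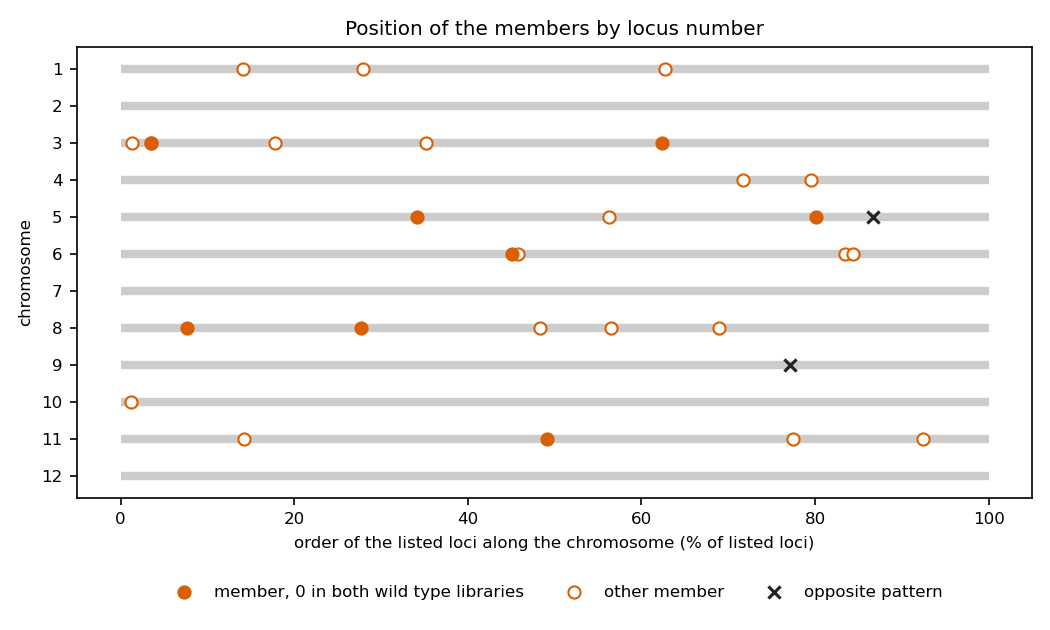
Position of the 28 loci along the 12 chromosomes, as the order of each locus among the loci listed for its chromosome (percent). Filled circles are the 8 loci at 0 in both wild type libraries, open circles the other 20, and crosses the 2 loci with the opposite pattern; the circles are scattered, with 3 close groupings on chromosomes 3 and 6.

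The members were mostly far apart. The 20 gaps between successive members of a chromosome had a median of 504.5 places in the order of listed loci, and 15 of them were of 200 or more. Within 500 in locus number, 2 members had another member close by, Os03g0115700 and Os03g0115800, which are 100 apart with no listed locus between them. The number was also 2 within 200, within 1000 and within 3 places. Among the larger sets of loci that the rule takes with fewer conditions, it was 8 when wild type replicate 1 was left out, and 4 when wild type replicate 3 or GSK2-RNAi oswrky53 replicate 1 was. With libraries scaled to equal totals, where the rule took 33 loci with all 8 libraries, it was also 4. The next closest were Os06g0314300 and Os06g0318533, with 18 listed loci between them, and Os06g0671600 and Os06g0676700, with 23 between them. Neither locus with the opposite pattern lay beside a member: they were on chromosomes 5 and 9, the latter without any member.

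The loci around a member mostly did not share its full pattern, and a neighbour that did share it would itself be a member. Around Os03g0629800, the locus before it, Os03g0628900, was at 659 and 747 in the wild type and at 826 to 1188 in the RNAi-labelled libraries. The locus after it, Os03g0629900, was at 742 and 561 in the wild type and at 294 to 616 in the RNAi-labelled libraries. Around the pair Os03g0115700 and Os03g0115800, the flanking Os03g0115500 was at 636 and 337 in the wild type and at 289 to 491 elsewhere, and Os03g0116000 at 291 and 362 against 243 to 299. All 4 flanking loci were thus present in the wild type beside members that were at or near 0. Some neighbours of other members were not like these 4. Os11g0594000, 2 places before Os11g0594600, was at 0.721 and 0 in the wild type and at 22.7, 20.6 and 25.4 with the GSK2-RNAi label. With the GSK2-RNAi oswrky53 label Os11g0594000 was at 2.19, 0 and 0.

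Within 3 listed places of a member lay 162 other loci, of which 120 had at least 10 in at least 2 libraries and were tested. In the libraries labelled GSK2-RNAi 24 of these 120 rose against the wild type, 20%, beside 13.3% of all loci tested, and 10 fell, 8.33% beside 11.6% (limma, adjusted p under 0.05). Without GSK2-RNAi replicate 2 the number that rose was 15, 12.6% beside 8.06%. In those labelled GSK2-RNAi oswrky53 3 of 120 rose and 0 fell, beside 0.308% and 0.0276% of all loci tested. These comparisons share the wild type libraries. With libraries scaled to equal totals, which moved the median of all loci in the first comparison from 0.02 to 0.40, the share in the first was 30.8% beside 31.6% of all loci, so its excess over the background was not kept. In the second it was 2.5% beside 0.463%. This look at the neighbours was added after the values were seen.

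The 3 neighbours that rose under both RNAi labels were Os08g0410950, Os10g0104000 and Os04g0587500. Os08g0410950, the next listed locus after Os08g0410900, was at 0.722 and 6.64 in the wild type, at 73.5, 58.4 and 53.9 with the GSK2-RNAi label and at 67.0, 108 and 74.1 with the GSK2-RNAi oswrky53 label. It missed the rule by its value in wild type replicate 3. It rose by 4.10 ± 0.58 under the GSK2-RNAi label (SE, limma adjusted p = 0.00236) and by 4.50 ± 0.58 under the GSK2-RNAi oswrky53 label (limma adjusted p = 0.0202). The second call was lost without any single one of the 6 RNAi-labelled libraries (adjusted p from 0.0525 to 0.0875).

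Os10g0104000, 3 places before Os10g0104750, was at 2.16 and 11.3 in the wild type, at 114, 112 and 127 with the GSK2-RNAi label and at 218, 223 and 152 with the GSK2-RNAi oswrky53 label. It rose by 4.24 ± 0.50 and by 4.97 ± 0.50 (SE, limma adjusted p = 0.00132 and 0.00523). Os04g0587500, just after Os04g0587451, was at 225 and 250.4 in the wild type, at 2201, 2079.7 and 2059.5, and at 939, 1102 and 1336. It rose by 3.15 ± 0.16 and by 2.23 ± 0.16 (SE, limma adjusted p = 5.71e-05 and 0.000667). Here the loci before the member, Os04g0587300 and Os04g0587400, also rose under the GSK2-RNAi label, by 2.85 ± 0.25 and by 1.88 ± 0.22 (SE, limma adjusted p = 0.000567 and 0.00136), while under the GSK2-RNAi oswrky53 label they were higher by 1.20 and 0.77 without passing (limma adjusted p = 0.117 and 0.225). Os06g0314501, 3 places after Os06g0314300, missed the rule by its value in wild type replicate 1. It was at 5.07 and 0.950 in the wild type, at 172, 118 and 263 with the GSK2-RNAi label and at 38.5, 18.6 and 33.2 with the GSK2-RNAi oswrky53 label. It rose by 5.68 ± 0.57 under the GSK2-RNAi label (SE, limma adjusted p = 0.000804) and was higher by 3.12 ± 0.57 under the GSK2-RNAi oswrky53 label without passing (limma adjusted p = 0.0807). The number of Os04g0587451 falls between the steps of 100, and whether it overlaps its neighbours or shares reads with them was not tested.

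**Figure D5:**
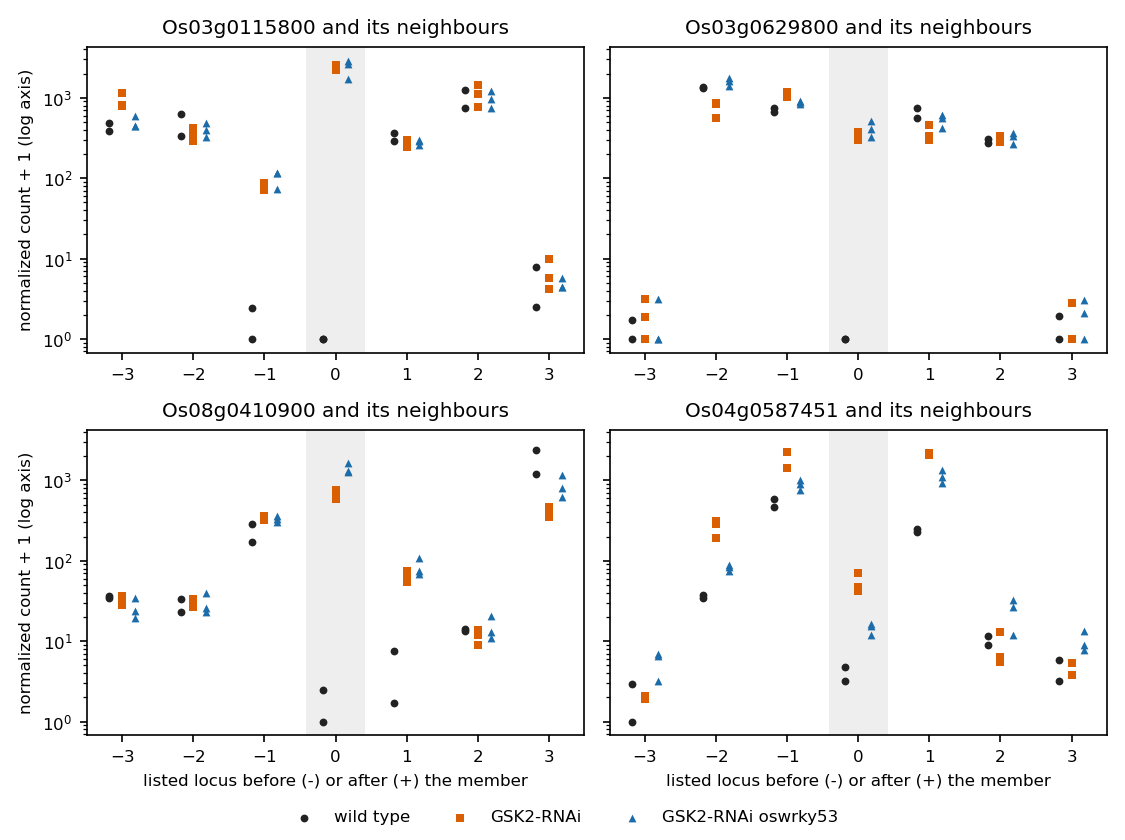
Normalized count plus 1 (log axis) in each library for 4 members (grey band) and the 3 listed loci on each side. Around Os03g0115800 and Os03g0629800 the wild type points drop to 0 or near it at the members (in the first panel also at Os03g0115700, 1 place before) while most flanking loci were present in all 3 groups; the locus after Os08g0410900 also has its wild type points below the RNAi-labelled ones, and around Os04g0587451 the adjacent loci are also higher in the RNAi-labelled libraries.

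In their identifiers the 28 loci largely resembled the table as a whole. A single transcript was listed for 26 of the 28, a somewhat larger share than the 84.7% of all loci. The locus number fell between the steps of 100 for 4 of them, 14.3%, beside 18.2% of all loci, and 8 had only a transcript with the suffix 00, 28.6%, beside 28.5%. Of the 2 members with more than 1 transcript, Os03g0115800 had all its counts in transcript 01, with transcript 02 at 0 in all 8 libraries. The counts of Os06g0676700 were divided between transcripts differently from library to library, and how reads shared by the transcripts were assigned was not tested. Transcript 01 was at 86.5, 27.7 and 39.0 with the GSK2-RNAi label and at 18.6, 39.2 and 0 with the GSK2-RNAi oswrky53 label. Transcript 02 was at 71.7 in GSK2-RNAi replicate 3, at 5.44 and 10.5 in GSK2-RNAi oswrky53 replicates 2 and 3, and at 0 in the other 5 libraries. The wild type count of this locus, 2.92 in replicate 3, came from transcript 03, which was at 0 in all others.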

How the data were processed

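Flag leaf RNA of 8 libraries was compared, grouped and numbered by the sample titles. The values deposited by the authors are normalized counts, a signal with 1 non-negative value per transcript and library; for its scaling and annotation the status is: not given in the sources used here. Tools listed in the submitters' processing notes are DESeq2 1.26.0 and kallisto 0.46.1, beside the build IRGSP 1.0, with no role given. Strand is not stated, so overlapping or antisense loci cannot be told apart, and reads shared between near-identical copies may have been divided between them. Totals ran from 20.87 to 28.03 in units of 1e+06 normalized counts. Whole reads could not be recovered from the steps of low values, so no count model was run.

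The 38335 transcripts were summed to 32166 loci by identifier. The members and lists were chosen with earlier results of these data known. Loci that reached 10 in 2 or more libraries were tested with limma 3.58.1 in R 4.3.3 on log2(value + 1), with all 3 groups in 1 fit, an intensity trend and Benjamini-Hochberg adjustment; all 28 members passed this filter, as the rule ensures. Log2 differences are on that scale, which understates the change of low loci, while ratios of means were taken on the normalized counts themselves. The fit was tested on simulated data. The loci to be named were the 6 members with the highest mean, those called between the RNAi labels, runs of neighbours, members and loci next to the limits, and GSK2; the further members and all neighbouring loci were named after their values were seen. The reference gene table held 1 identifier of the deposited table and no member, so lists of cell type markers by gene name could not be applied, and the tissue check rests on 3 loci chosen after the table was seen. No sequences are shown. Alternatives changed the limits, scaling, pseudocount, filter, spread estimate, replicate block and set of libraries.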

Additional observations from a re-analysis of the deposited data

How the results depend on the processing

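The rule took 9 loci with limits of at most 2 and at least 20, 111 with at most 10 and at least 10, 33 with equal totals, and 29 to 95 leaving out 1 library at a time. The opposite pattern gave 0, 38, 1 and 2 to 33. Members with another member close by numbered 4 with equal totals and 2 to 8 leaving out 1 library. Between the RNAi labels, leaving out 1 library gave 1 to 6 members called, 0 to 1 higher and 1 to 5 lower. Members called higher were 2 with pseudocount 5, with only the 2 groups compared and with a filter of 10 or more in all 6 libraries (chosen after seeing the data), and 0 with pseudocount 0.5, with no filter and with equal totals. Of all loci, 7338 were called with equal totals (1145 higher, 6193 lower), and leaving out 1 library gave 1575 to 4354 (795 to 2374 higher, 780 to 1980 lower). Of the neighbours, 37 rose under the GSK2-RNAi label with equal totals, and 15 to 24 leaving out 1 library; under the GSK2-RNAi oswrky53 label 2 to 3 rose.

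Replicate numbers did not pair the libraries: same-numbered libraries correlated at -0.04, -0.06 and 0.04. With the replicate block 5 members were called, as without it, and 2783 of all loci, of which 1268 were lower. For the neighbours the fits of only the 2 groups and with the block were not run.

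Of 476 values of single members, 428 kept their direction and side of the threshold, 21 lost a call, 7 gained one and 20, at 11 members, changed sign, none of them at a called locus. With equal totals Os03g0115700 was at -0.01, Os03g0293600 at -0.03, Os03g0629800 at -0.02, Os05g0527700 at -0.22 and Os11g0672900 at -0.12 (log2). With quantile normalization Os05g0424100 was at 0.04 and Os08g0207300 at 0.02. Leaving out 1 library, Os03g0105500 ran from 0 to 0.50, Os03g0115800 from -0.16 to 0.21, Os05g0424100 from -0.47 to 0.45, Os05g0527700 from -0.06 to 0.31, Os06g0314300 from -0.34 to 0.18, Os08g0207300 from -0.24 to 0.13, Os08g0360300 from -0.81 to 0.36 and Os11g0672900 from -0.30 to 0.63. Apart from fewer libraries or conditions, the cause of these changes was not tested. With 2 wild type libraries and limits of a few reads, the depth does not separate a locus at 0 from one at a few reads.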
